A study of Mus musculus with 13 samples.

Results

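The genes described here are those of the Wnt pathway that carry its signal from outside the cell to the nucleus. They were chosen by name from the genes of mouse sciatic nerve measured by RNA sequencing. The rule took every protein-coding gene named as a Wnt ligand, Frizzled receptor, Lrp5 or Lrp6 coreceptor, secreted inhibitor (Sfrp, Dkk, Wif1), R-spondin, Axin, Ctnnb1, or Tcf/Lef factor. It found 51 of the 40787 genes in the table. The rule reads gene names, not expression. The mice, labelled C57BL/6 and bred onto that background by repeated backcrossing, carried floxed Rptor alleles and received tamoxifen at 2 months of age. Rptor encodes Raptor, an essential subunit of the growth-controlling kinase complex mTORC1. In RaptorKO mice tamoxifen induced the deletion of Rptor in Schwann cells (SCs), and controls had no Cre. One sciatic nerve was crushed 2 months after tamoxifen and collected 5 days post-crush (dpc), distal to the injury, along with the uninjured contralateral nerve. The 13 libraries, 1 per nerve, came from 3 contralateral and 3 injured control nerves and from 4 contralateral and 3 injured RaptorKO nerves. RNA was taken from the whole nerve after the epineurium was stripped, so SC transcripts were measured together with those of every other cell type present.

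In the canonical Wnt pathway, a secreted Wnt protein binds a Frizzled receptor together with Lrp5 or Lrp6, which stops a complex built on Axin from degrading beta-catenin. Beta-catenin, the product of Ctnnb1, then enters the nucleus and activates transcription with the Tcf/Lef factors. Sfrp proteins and Wif1 bind the ligands, Dkk1 acts at the coreceptor, and R-spondins strengthen the signal by keeping Frizzled receptors at the cell surface. In peripheral nerve, the pathway has been tied to myelin gene expression by SCs.

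Levels are given in CPM, a gene's counts relative to the total of its library, after scaling with edgeR's TMM factors, which correct that total for composition. Testing was limited to the 12851 genes with 50 counts or more in 2 or more of the 13 libraries. A gene was called when the Benjamini-Hochberg adjusted p of edgeR's quasi-likelihood test, taken over all tested genes, was below 0.05 and the fold change above 1.2. Fold changes are on a log2 scale with their standard error (SE). Library totals ranged from 8200476 to 13581788 counts. Rptor was at 43.9 to 52.7 CPM in control and 22.1 to 28.2 CPM in RaptorKO contralateral nerves, and at 35.2 to 48.8 and 23.3 to 28.8 CPM in injured nerves. Both libraries of control replicate 3 stood apart from the others in sex-linked genes, with Xist at 1420 and 1470 CPM against 0.357 to 2.2 CPM in the other 11. Their 4 Y-linked genes summed to 0.98 and 1.97 CPM, against 141 to 189 CPM in the others. SC identity markers (Sox10, S100b, Erbb3, and Cdh19) summed to 2303 to 2335 CPM in control and 1216 to 1536 CPM in RaptorKO contralateral nerves. The T cell markers summed to at most 2.66 CPM in any library, and skeletal muscle markers to at most 26.3 CPM.

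Of the 51 genes, 29 passed the count filter. These were 6 of 19 Wnt ligands, 10 of 12 receptors and coreceptors, 5 of 9 secreted inhibitors, 1 of 4 R-spondins, all 3 genes of the Axin and beta-catenin group, and all 4 Tcf/Lef genes. Wnt1, Wnt3, Wnt3a, Wnt8b, Dkk1, and Dkk4 had no count in any of the 13 libraries. The other 16 below the filter were Dkk2, Fzd9, Fzd10, Rspo2, Rspo3, Rspo4, Sfrp2, Wnt2, Wnt4, Wnt5b, Wnt7a, Wnt8a, Wnt9b, Wnt10b, Wnt11, and Wnt16. The filter was met through injured libraries alone by Wif1 and Wnt7b, and through contralateral libraries alone by Wnt10a, Wnt2b, Wnt5a, and Wnt9a. The remaining 23 reached 50 counts in nerves of both kinds.

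Levels of different genes were compared per kilobase of exon. In control contralateral nerves the secreted inhibitor Sfrp5 stood highest, at 352 ± 104 CPM per kilobase (SD, n = 3). Ctnnb1 followed at 81.5 ± 6.58, Dkk3 at 41.6 ± 3.3, the R-spondin gene Rspo1 at 29.3 ± 5.46, and the coreceptor gene Lrp6 at 16.6 ± 0.91 CPM per kilobase (SD, n = 3). The highest ligand was Wnt6, at 13.1 ± 3.89 CPM per kilobase (SD, n = 3), which overlapped the spread of Lrp6 and of Tcf7l1 at 12.6 ± 2.74. In control injured nerves the order was different. Ctnnb1 was highest at 85 ± 3.31 CPM per kilobase (SD, n = 3), Sfrp5 was at 34.4 ± 19.7, and Fzd1 at 18.4 ± 0.19. The plot of all tested Wnt genes by library shows these levels without the correction for length.

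**Figure D1:**
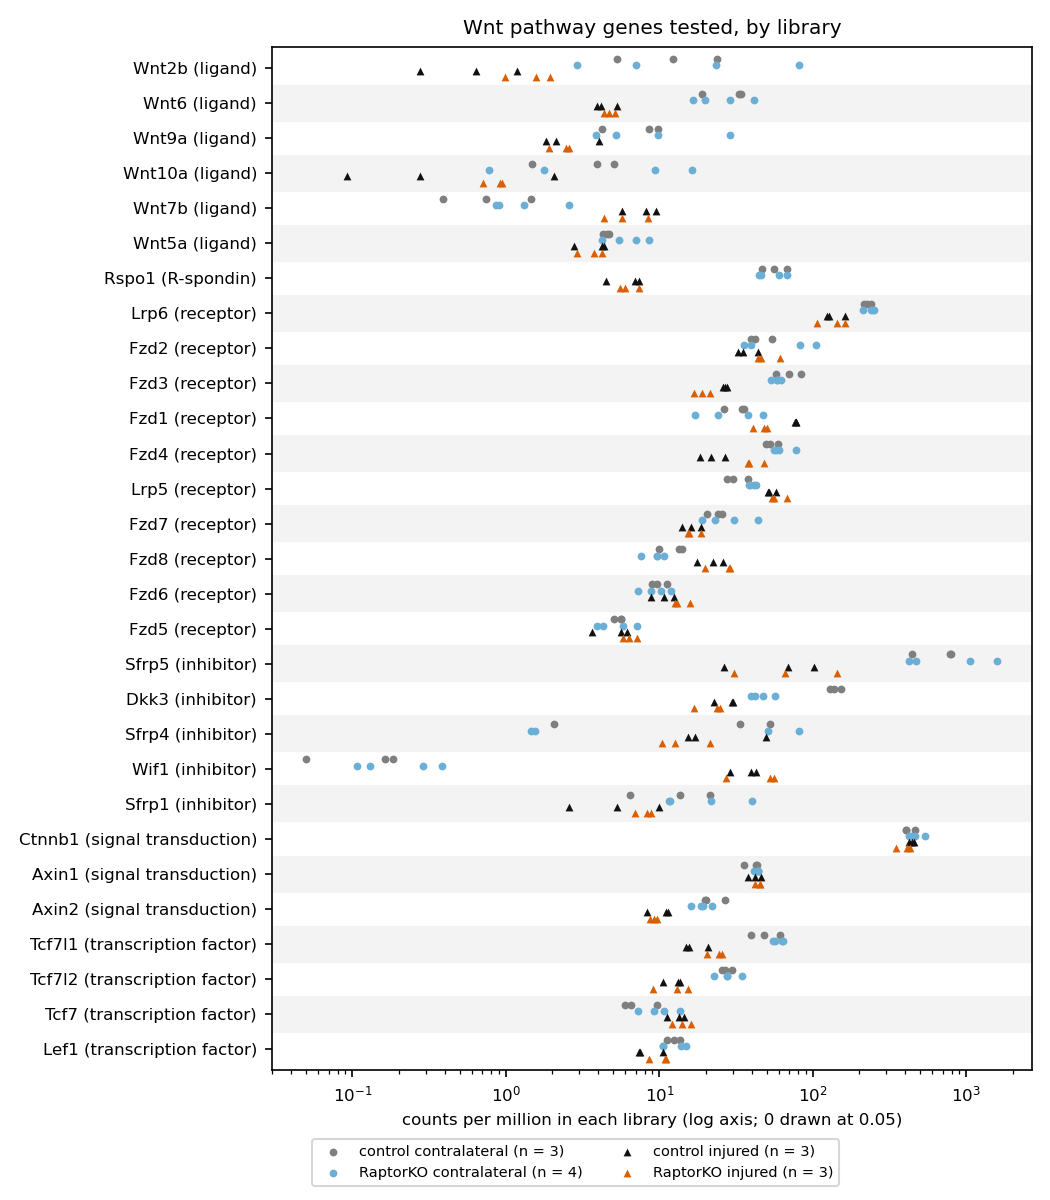
CPM (log axis) of the 29 tested Wnt pathway genes in each of the 13 libraries, grouped by role, with circles for contralateral and triangles for injured nerves and a value of 0 drawn at 0.05. Wif1 lies below 1 CPM in all 7 contralateral libraries and above 27 CPM in all 6 injured ones, and the 4 RaptorKO contralateral libraries of Dkk3 lie below its 3 control contralateral ones.

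The first comparison asked how the crush changed these genes in control nerves. Of the 29 tested, 6 rose and 16 fell. Among all tested genes 32.1% rose and 32.3% fell. The median log2 fold change of the 29 was -0.57, against -0.002 for all tested genes. Ligands, inhibitors, and receptors all held genes that moved in either direction. Since Wnt2b, Wnt9a, and Wnt10a passed the count filter through contralateral libraries alone, and Wif1 and Wnt7b through injured ones alone, their directions were in part set by the filter. In whole nerve, fewer cells of a type and less RNA per cell cannot be told apart. Markers of myelinating SCs summed to 72160 to 92420 CPM over all contralateral and 1591 to 2434 CPM over all injured libraries, those of repair SCs to 95.01 to 133.6 and 1828 to 2647 CPM, and those of macrophages to 65.9 to 161 and 522 to 1275 CPM. The part of these shifts in the changes of the Wnt genes was not tested.

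Wif1, which encodes a secreted protein that binds Wnt ligands, made the steepest rise. It held 2, 2, and 0 counts in the control contralateral libraries and 465, 428, and 292 counts in the injured ones. In RaptorKOs it held 1, 5, 3, and 1 counts in contralateral and 585, 344, and 607 counts in injured nerves. Every injured library was thus far above every contralateral one in both genotypes. The ratio of scaled counts was 310 in controls, with a 95% interval of 121 to 1140, and 179 in RaptorKOs, with an interval of 97.2 to 374, and both intervals cover counting error only. The edgeR adjusted p was 3.57e-09 in controls and 9.18e-08 in RaptorKOs. Because Wif1 passed the count filter through injured libraries alone, these values are not independent support for its direction.

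Of the 6 tested ligands, Wnt2b, Wnt5a, Wnt9a, and Wnt10a passed the count filter through contralateral libraries alone, and Wnt7b through injured ones alone. The directions of these ligands were therefore in part set by the filter. Wnt7b was the ligand that rose. Its level was 1.46, 0.737, and 0.392 CPM in control contralateral and 5.69, 8.2, and 9.54 CPM in control injured nerves, with a log2 fold change of 3.13 (SE 0.46, edgeR adjusted p = 7.76e-05). Wnt6, the best expressed ligand, fell from 33.3, 18.8, and 33.9 CPM to 3.94, 4.14, and 5.31 CPM (log2 fold change -2.70, SE 0.25, edgeR adjusted p = 1.87e-06). The groups of both genes were far apart. Wnt2b fell from 23.8, 5.32, and 12.4 CPM to 0.642, 0.276, and 1.18 CPM (log2 fold change -4.32, SE 0.60, edgeR adjusted p = 5.61e-05), again without overlap. Wnt9a and Wnt10a also fell, by 1.52 and 2.12 on the log2 scale, whereas Wnt5a, a ligand best known for signalling without beta-catenin, was at 4.31 to 4.67 CPM before and 2.76 to 4.33 CPM after injury and was not called. The perineurial markers, 5 of 5 of which fell, summed to 999.4 to 1225 CPM in control contralateral and 386 to 437 CPM in control injured nerves, and their part in the fall of the ligands was not tested. Of the ligands below the filter, singled out after their values were seen, Wnt10b held 14, 3, and 13 counts in control contralateral and 22, 48, and 42 counts in control injured nerves, and it was called higher when no count filter was used. Wnt4 went from 2 counts in all to 19, with a ratio of scaled counts of 9.93 and a 95% interval of 2.39 to 87.9, which covers counting error only.

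Rspo1, the only R-spondin gene tested, fell in parallel. It went from 67.8, 56.2, and 46.7 CPM in control contralateral to 7.34, 4.51, and 6.98 CPM in control injured nerves. The log2 fold change was -3.20 (SE 0.21, edgeR adjusted p = 6.43e-08), so that every injured library lay well below every contralateral one.

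Of the genes classed by name as secreted inhibitors, other than Wif1, Sfrp5 and Dkk3 fell most clearly. The class rests on names alone, and an action of Dkk3 on the pathway was not tested. Sfrp5 went from 788, 441, and 777 CPM to 68.4, 26.5, and 101 CPM (log2 fold change -3.37, SE 0.40, edgeR adjusted p = 1.33e-05). The perineurial markers fell as well, and their part in the fall of Sfrp5 was not tested. Dkk3, which encodes a secreted glycoprotein of the Dickkopf family, went from 129.8, 137.6, and 151.7 CPM to 22.6, 30.2, and 29.9 CPM (log2 fold change -2.37, SE 0.12, edgeR adjusted p = 1.14e-08). In neither gene did the groups overlap. Sfrp1 fell by 1.24 on the log2 scale, with groups that overlapped. Sfrp4 was at 2.05 to 52.8 CPM in contralateral and 15.4 to 49.7 CPM in injured control nerves, and no change could be detected against that spread (log2 fold change -0.12, SE 0.72).

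The receptors split. Fzd1 rose from 34.6, 26.3, and 35.5 CPM to 76.5, 77.1, and 78.1 CPM in control nerves (log2 fold change 1.24, SE 0.12, edgeR adjusted p = 2.82e-06). The coreceptor gene Lrp5 rose from 37.8, 27.8, and 30.2 CPM to 51.2, 57.7, and 51.4 CPM (log2 fold change 0.72, SE 0.13, edgeR adjusted p = 0.000544), and Fzd8 rose by 0.79 on the log2 scale. These groups were separate in each case. Its partner Lrp6 moved the other way, from 215, 224, and 240 CPM to 162, 124, and 128 CPM (log2 fold change -0.74, SE 0.11, edgeR adjusted p = 8.17e-05). Fzd3 fell from 57.7, 83.2, and 70.0 CPM to 27.5, 25.8, and 26.7 CPM (log2 fold change -1.42, SE 0.14, edgeR adjusted p = 2.6e-06). Fzd4, a receptor with a known role in vascular endothelium, fell from 52.7, 49.7, and 59.6 CPM to 18.3, 21.6, and 26.9 CPM (log2 fold change -1.30, SE 0.15, edgeR adjusted p = 1.42e-05). All 3 of these falls left the groups apart. Fzd7 fell by 0.54 on the log2 scale, and Fzd2, Fzd5, and Fzd6 were not called.

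Inside the cell, the level of Ctnnb1 was 403 to 463 CPM in contralateral and 423 to 457 CPM in injured control nerves, with a log2 fold change of 0.04 and a 95% interval of -0.19 to 0.26. Axin1, a scaffold of the complex that degrades beta-catenin, likewise showed a log2 fold change of 0.03, with an interval of -0.24 to 0.31. Axin2, which has the same function and is itself a widely used target gene of the pathway, fell from 26.6, 19.98, and 19.8 CPM to 11.5, 11.1, and 8.26 CPM (log2 fold change -1.13, SE 0.19, edgeR adjusted p = 0.000266). All injured libraries were below all contralateral ones.

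Of the Tcf/Lef factors, 3 fell and 1 rose. Tcf7l1 went from 60.8, 48.1, and 39.5 CPM to 15.5, 15.01, and 20.8 CPM (log2 fold change -1.56, SE 0.19, edgeR adjusted p = 1.62e-05). Tcf7l2 went from 25.8, 26.8, and 29.6 CPM to 13.2, 10.5, and 13.6 CPM (log2 fold change -1.16, SE 0.16, edgeR adjusted p = 4.11e-05). Both genes had separate groups. Lef1 fell by 0.57 and Tcf7 rose by a log2 fold change of 0.80.

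Some of the smaller calls rested on single control libraries. The fall of Lef1 was not called without control contralateral 2 (edgeR adjusted p = 0.0703), control contralateral 3 (0.102), control injured 1 (0.106), or control injured 3 (0.103). That of Sfrp1 was not called without control contralateral 1 (edgeR adjusted p = 0.205) or 3 (0.0626), or without control injured 1 (0.0864) or 2 (0.119). Wnt10a lost its call without the same libraries (edgeR adjusted p = 0.142, 0.08, 0.109, and 0.108), and Fzd7 without control injured 2 (edgeR adjusted p = 0.0528). Without both libraries of control replicate 3, 6 genes rose and 14 fell, with Fzd7 (edgeR adjusted p = 0.0597) and Lef1 (0.208) no longer called.

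The same comparison in RaptorKO nerves gave 5 genes that rose and 15 that fell. It shares no library with the first, but the count filter was set on all 13 libraries. That filter in part set the directions of Wif1, Wnt7b, Wnt2b, Wnt9a, and Wnt10a in both comparisons, and all of them are among the shared calls. Among all tested genes 30.4% rose and 28.2% fell, and the median log2 fold changes were -0.80 for the 29 genes and 0.03 for all. Of the genes that rose, 4 were called in both genotypes, which is 66.7% of those in controls and 80% of those in RaptorKOs. Of those that fell, 15 were shared, which is 93.8% of those in controls and 100% of those in RaptorKOs. Fzd1 and Tcf7 were called higher in controls alone, Lef1 was called lower in controls alone, and Fzd6 was called higher in RaptorKOs alone. Most of these differences went away when the injured and contralateral nerve of a mouse were paired, with the mouse number as a block, a fit in which the unpaired RaptorKO contralateral 4 carries no information on injury. With that block, Fzd1 (log2 fold change 0.55, edgeR adjusted p = 0.0458) and Tcf7 (0.63, edgeR adjusted p = 0.0312) were called higher in RaptorKOs, Wnt5a was called lower (-0.82, edgeR adjusted p = 0.045), and Fzd6 was not called (edgeR adjusted p = 0.0538). The 6 genes that rose were then the same in both genotypes. Of the 16 genes that fell in each genotype 15 were shared, with Lef1 in controls alone and Wnt5a in RaptorKOs alone. With the block, 31.7% of all tested genes rose in controls and 29.5% in RaptorKOs, and 32% and 28.3% fell. These are shares called within a genotype. The share of all tested genes called in both genotypes was not determined, so the overlaps given here have no background beside them. The interaction test, which asks whether the response to injury differed between genotypes, called none of Fzd1, Tcf7, Lef1, Fzd6, and Wnt5a, with or without the block. The call of Fzd6 was lost when any of RaptorKO contralateral 1, 3, or 4 or RaptorKO injured 1, 2, or 3 was left out (edgeR adjusted p = 0.0643, 0.112, 0.083, 0.0725, 0.153, and 0.0681). That of Fzd7 was lost without RaptorKO injured 1 (edgeR adjusted p = 0.0651) or 2 (0.0626), and that of Wnt10a without RaptorKO injured 1 (edgeR adjusted p = 0.0574).

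Values in RaptorKO nerves followed the control pattern for the largest changes. Rspo1 went from 60.5, 44.8, 67.5, and 46.1 CPM to 5.53, 7.34, and 5.97 CPM (log2 fold change -3.12, SE 0.20, edgeR adjusted p = 3.94e-07). Wnt6 went from 28.9, 19.9, 41.3, and 16.4 CPM to 4.37, 5.13, and 4.69 CPM (log2 fold change -2.49, SE 0.31, edgeR adjusted p = 5.86e-05). Contralateral and injured libraries were separate in both. Fzd8 rose by a log2 fold change of 1.45 (SE 0.18, edgeR adjusted p = 5.75e-05), compared with 0.79 in controls, and the interaction for Fzd8 was not called (log2 0.64, SE 0.28, edgeR adjusted p = 0.306).

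**Figure D2:**
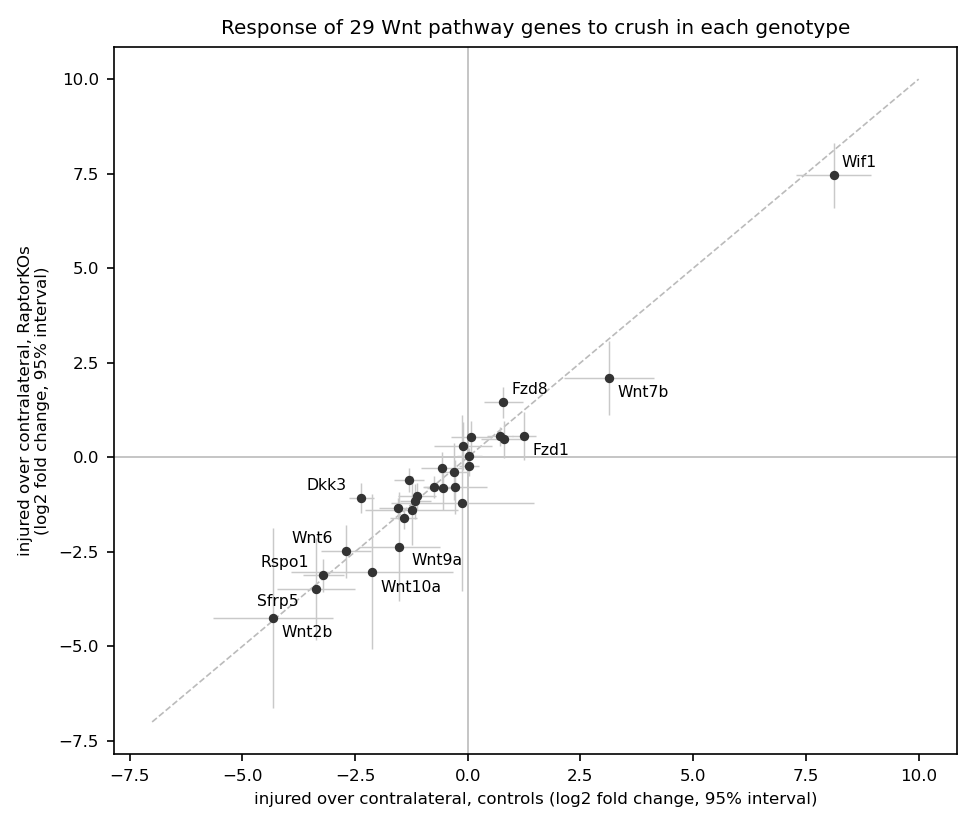
Log2 fold change of injured over contralateral nerves in controls (x axis) and RaptorKOs (y axis) for the 29 tested genes, with 95% intervals as bars and equality as the dashed line. Most genes lie along the line, from Wnt2b at -4.32 and -4.25 to Wif1 at the upper right, and Dkk3 lies above it at -2.37 and -1.09.

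The effect of Raptor loss on uninjured nerves was then examined in the contralateral libraries. Of the 29 genes, 0 were higher and 1 was lower in RaptorKOs, whereas 4.07% of all tested genes were higher and 5.35% lower. At an unadjusted p below 0.05 there were 2 Wnt genes, and DESeq2 and the exact test of edgeR each called 0 higher and 1 lower. Groups that did not overlap were found for 1 gene that was higher and 1 that was lower, against 10.1% and 12.8% of all tested genes. The median log2 fold change was 0.21 for the 29 genes and 0.02 for all.

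Dkk3 (ENSMUSG00000030772, chr7:112116017-112159057 of GRCm38, minus strand) was the gene that was lower. Its level was 129.8, 137.6, and 151.7 CPM in control contralateral nerves and 47.1, 39.2, 56.9, and 42.2 CPM in RaptorKO contralateral nerves. All 4 RaptorKO libraries were therefore well below the lowest control. The log2 fold change was -1.58 (SE 0.12, edgeR adjusted p = 5.24e-05), and it ranged from -1.69 to -1.51 over 16 alternative analyses, in all of which it was called. SC identity markers moved with it: 3 of 4 were lower in RaptorKO contralateral nerves, with no overlap of their sums. Their part in the result was not tested. In injured nerves Dkk3 was at 22.6, 30.2, and 29.9 CPM in controls against 23.8, 16.8, and 24.9 CPM in RaptorKOs, with overlapping groups and no call (log2 fold change -0.33, 95% interval -0.73 to 0.08).

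Accordingly, Dkk3 was the only one of the 29 called in the interaction test. It fell by 2.37 on the log2 scale upon injury in controls and by 1.09 in RaptorKOs. The difference between these responses was 1.25 (SE 0.23, edgeR adjusted p = 0.00985). Thus 1 Wnt gene had a higher and 0 had a lower response in RaptorKOs, against 1.07% and 1.41% of all tested genes, and 3 had an unadjusted p below 0.05. Without both libraries of control replicate 3 the difference was again 1.25, but it was not called (SE 0.27, edgeR adjusted p = 0.0508).

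Lrp5 was the gene whose contralateral groups did not overlap upward. It was at 37.8, 27.8, and 30.2 CPM in controls against 38.8, 38.2, 42.6, and 41.2 CPM in RaptorKOs, and the difference was not called (log2 fold change 0.34, SE 0.12, edgeR adjusted p = 0.115).

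**Figure D3:**
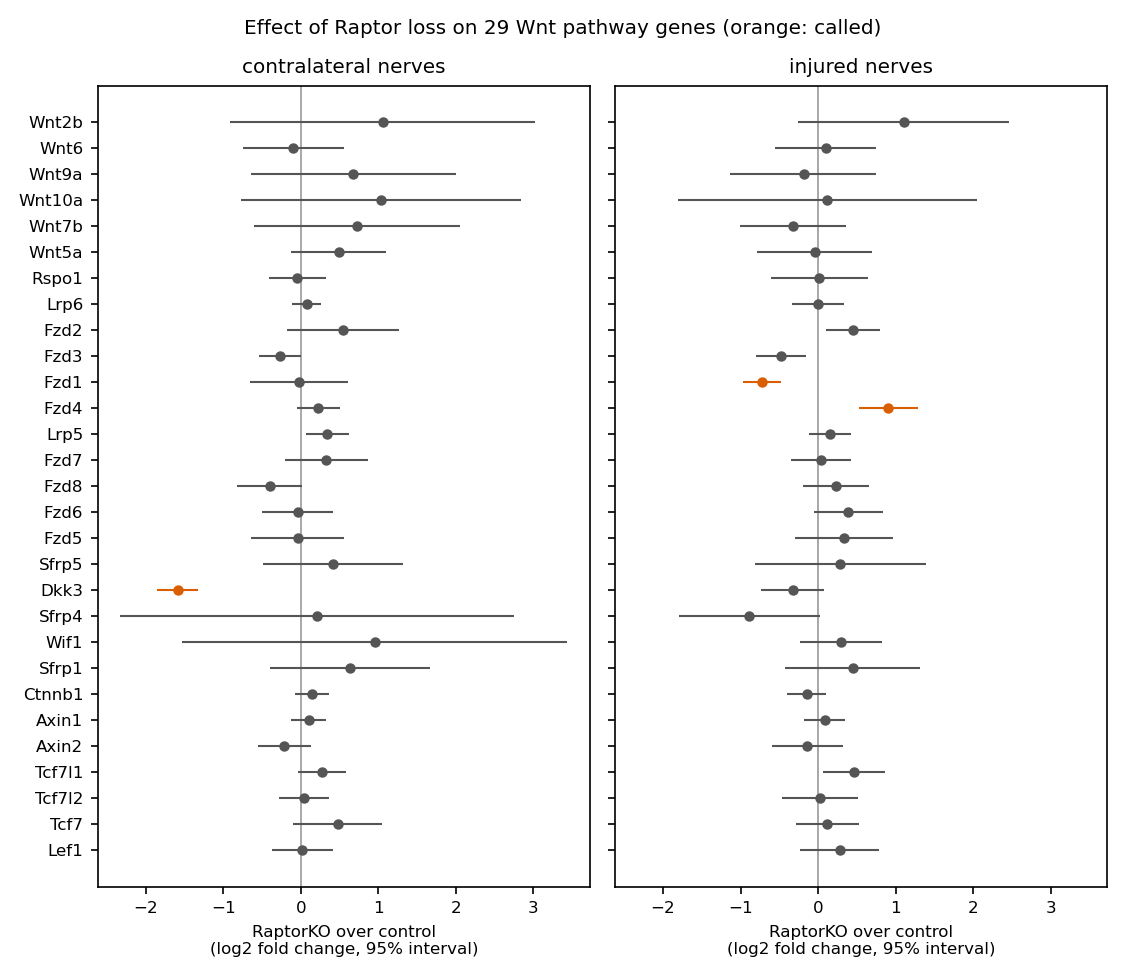
Log2 fold change of RaptorKO over control for the 29 tested genes in contralateral (left) and injured (right) nerves, with 95% intervals for each gene as bars and called genes in orange. Dkk3 at -1.58 is the called gene on the left, and Fzd1 at -0.72 and Fzd4 at 0.91 are those on the right.

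Several ligands and inhibitors varied widely among contralateral nerves of 1 genotype. Sfrp4 was at 33.7, 2.05, and 52.8 CPM in the 3 controls and at 51.1, 1.46, 81.8, and 1.55 CPM in the 4 RaptorKOs. Wnt2b was at 23.4, 2.91, 81.0, and 6.99 CPM in these RaptorKOs, and Wnt10a at 9.43, 1.76, 16.3, and 0.776 CPM. Sfrp5 was at 788.2, 441.1, and 776.9 CPM in controls and at 1062, 422.4, 1593, and 467.6 CPM in RaptorKOs. In all of these genes RaptorKO contralateral 3 was the highest library. The 5 adipocyte markers (Adipoq, Plin1, Cidec, Fabp4, and Lep) summed to 26.5, 1.64, and 88.5 CPM in controls against 31.9, 1.3, 286, and 1.81 CPM in RaptorKOs, so that the 3 libraries with the lowest adipocyte sums were also those with the lowest Sfrp4. The perineurial sums were lowest in the same 3 libraries (999.4, 957.9, and 971.9 CPM) and highest in RaptorKO contralateral 3 (1807 CPM). So were the skeletal muscle sums, at 3.77, 3.14, and 5.82 CPM and at 26.3 CPM. These sums were mostly Tnnt3, which was at 24.8 CPM in RaptorKO contralateral 3, and Acta1, Ckm, Myh4, and Ttn were too low to be tested. In injured nerves the control with the highest Sfrp4, at 49.7 CPM, had an adipocyte sum of 64.5 CPM, against 7.06 to 13.2 CPM in the other 5 libraries. The part of these cells in the values was not tested. The 95% intervals of the genotype difference in contralateral nerves were accordingly wide, from -2.33 to 2.75 for Sfrp4 and from -0.91 to 3.02 for Wnt2b on the log2 scale.

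**Figure D4:**
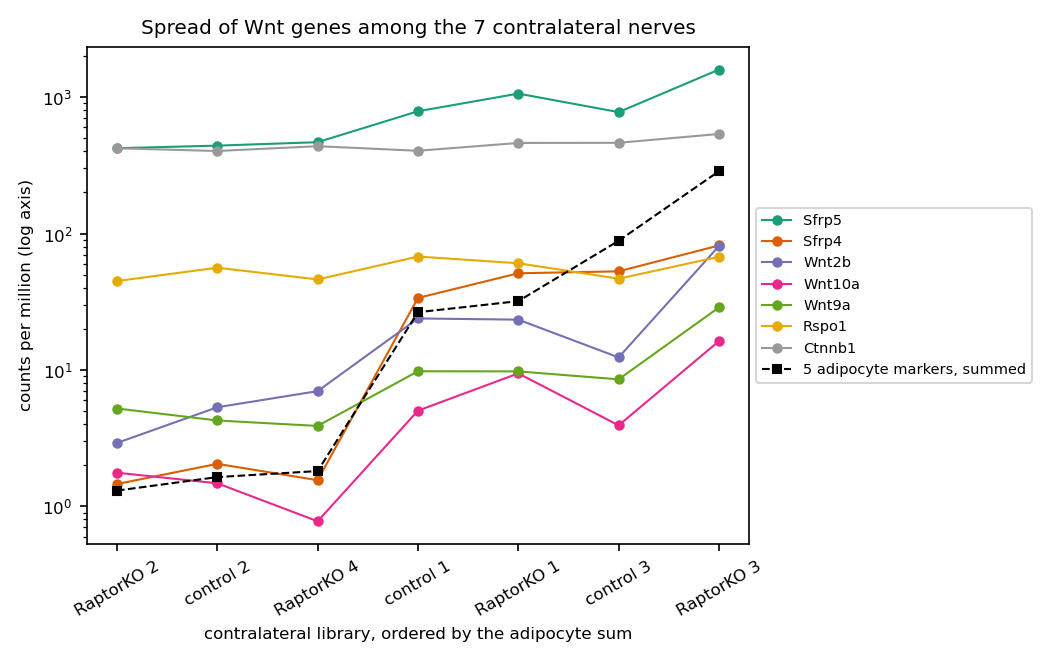
CPM (log axis) of 7 Wnt pathway genes and of the summed adipocyte markers (dashed) in the 7 contralateral libraries, ordered by the adipocyte sum. Sfrp4 goes from 1.46 to 81.8 CPM across these libraries, whereas Ctnnb1 stays between 403 and 537 CPM.

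In injured nerves, 1 of the 29 genes was higher and 1 was lower in RaptorKOs, against 3.68% and 4.05% of all tested genes. Groups did not overlap for 3 genes that were higher and 2 that were lower, against 11.9% and 14.1% of all tested genes. The median log2 fold change was 0.10 for the 29 genes and 0.002 for all, and 5 Wnt genes had an unadjusted p below 0.05. Both called genes encode Frizzled receptors, and they moved in opposite directions.

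Fzd1 (ENSMUSG00000044674, chr5:4753839-4758035, minus strand) was at 76.5, 77.1, and 78.1 CPM in injured controls and 47.8, 40.9, and 50.5 CPM in injured RaptorKOs. The controls were nearly identical, and every RaptorKO library was below them. The log2 fold change was -0.72 (SE 0.11, edgeR adjusted p = 0.00363). When all 13 libraries shared 1 estimate of the spread, the call was lost at about the same size of change (edgeR adjusted p = 0.0943). The RaptorKO contralateral libraries, which are part of that fit, were spread from 17.2 to 47.2 CPM. The interaction was not called (log2 -0.71, SE 0.36, edgeR adjusted p = 0.406).

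Fzd4 (ENSMUSG00000049791, chr7:89404355-89413134, plus strand) was at 18.3, 21.6, and 26.9 CPM in injured controls and 37.9, 47.8, and 38.2 CPM in injured RaptorKOs. The groups were again separate, with a log2 fold change of 0.91 (SE 0.17, edgeR adjusted p = 0.0101). Endothelial markers moved the same way. All 6 (Pecam1, Cdh5, Kdr, Tek, Emcn, and Cldn5) were higher in injured RaptorKOs, with sums of 408 to 646 CPM against 228 to 340 CPM in controls. Of the 5 pericyte and smooth muscle markers 3 were higher, with sums of 727 to 1037 CPM against 392 to 495 CPM. Their part in the difference of Fzd4 was not tested. In contralateral nerves, where no endothelial marker was called, Fzd4 was at 49.7 to 59.6 CPM in controls against 55.6 to 77.4 CPM in RaptorKOs and was not called. The interaction for Fzd4 was 0.68 on the log2 scale (SE 0.22, edgeR adjusted p = 0.136).

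The other 3 genes whose injured groups did not overlap were also Frizzled receptors, and none was called. Fzd3 was at 27.5, 25.8, and 26.7 CPM in controls against 16.8, 19.0, and 21.2 CPM in RaptorKOs (log2 fold change -0.48, SE 0.15, edgeR adjusted p = 0.0769). In the fit on all 13 libraries, in which Fzd1 lost its call, Fzd3 was called lower (edgeR adjusted p = 0.0351). Fzd2 and Fzd6 were higher in RaptorKOs, by log2 fold changes of 0.45 and 0.39 (edgeR adjusted p = 0.124 and 0.306). The ligands did not differ detectably. The 95% interval was -0.55 to 0.75 for Wnt6, -1.01 to 0.36 for Wnt7b, and -0.79 to 0.70 for Wnt5a. It was wider for Wnt9a (-1.13 to 0.75), Wnt2b (-0.26 to 2.47), and Wnt10a (-1.81 to 2.05), so large differences in these remain possible. Wif1, at 42.7, 39.4, and 28.7 CPM in injured controls and 52.2, 27.2, and 55.8 CPM in injured RaptorKOs, overlapped between genotypes (log2 fold change 0.29, 95% interval -0.23 to 0.82).

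Wnt4, too low to be tested and singled out after its values were seen, held 10, 1, and 8 counts in injured controls and 1, 0, and 0 counts in injured RaptorKOs. The ratio of scaled counts was 0.0484, with a 95% interval of 0.00116 to 0.304 for counting error only. Since 1 of the 3 control libraries also held 1 count, the groups met. Sfrp2, chosen in the same way, held 39, 0, and 6 counts in control contralateral and 25, 0, 18, and 0 counts in RaptorKO contralateral nerves and none in any of the 6 injured libraries.

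Promoter sequence was searched for the letters of 2 motifs in windows from 250 bases before to 50 bases after each gene start in RefSeq (GRCm38.p6), on both strands. Of the 51 genes 34 had a window, and these genes had 43 windows in all. The core of the TCF/LEF motif, CTTTGA, was found in 5 of the 43 windows (11.6%), compared with 16% of all 32851 windows. The AP-1 motif, TGANTCA, where N is any base, was found in 1 of the 43 windows (2.33%), compared with 7.81% of all. The 2 tested genes with CTTTGA in a window were Fzd1 and Lef1. Their sites are shown because Fzd1 was called for genotype in injured nerves and Lef1 is itself a factor of the pathway. They are written on the strand of the gene with the motif, here its reverse complement, in capitals. A match describes the letters only. Both Lef1 sites lie inside the annotated gene (chr3:131110471-131224356, plus strand). Their positions are counted from an internal start, not from the first base of the gene. The position of the Fzd1 site is counted from a RefSeq start upstream of the annotated gene (chr5:4753839-4758035).
Fzd1, chr5:4758441-4758466, minus strand, motif at position -242 from the start: cgcagcacTCAAAGtagcagtctgtg
Lef1, chr3:131156102-131156131, plus strand, motif at position -180: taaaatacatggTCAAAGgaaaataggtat
Lef1, chr3:131156162-131156191, plus strand, motif at position -120: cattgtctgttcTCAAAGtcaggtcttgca

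Other genes of the pathway were taken from 6 lists. Upon injury in controls, 1 of the 2 Wnt secretion genes rose and 1 fell, 1 of 4 tested R-spondin receptors and their ubiquitin ligases rose and 3 fell, and 3 of 13 other extracellular modulators rose and 6 fell. Of 14 alternative receptors and planar polarity genes 4 rose and 6 fell, of 25 cytoplasmic and nuclear transduction genes 5 rose and 9 fell, and of 9 textbook targets of beta-catenin 6 rose and 1 fell. Among all tested genes 32.1% rose and 32.3% fell, shares that several of these counts were close to. In RaptorKOs the counts that differed from these were 2 and 7 for modulators, 2 and 6 for transduction genes, and 5 and 2 for targets, against 30.4% and 28.2% of all tested genes.

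Wls, which encodes the carrier that brings Wnt proteins to the cell surface, rose upon injury by log2 fold changes of 1.17 in controls and 0.73 in RaptorKOs (edgeR adjusted p = 1.91e-06 and 0.0444). The call in RaptorKOs was lost when RaptorKO contralateral 1, 2, or 4 or RaptorKO injured 1 or 3 was left out (edgeR adjusted p = 0.0538, 0.0945, 0.104, 0.0936, and 0.178). Porcn fell by 0.55 and 0.73 on the log2 scale, the fall in controls not being called without control contralateral 1 or 2 or control injured 2 or 3 (edgeR adjusted p = 0.177, 0.123, 0.158, and 0.11) or with the mouse number as a block (0.0513), and that in RaptorKOs not without RaptorKO contralateral 1 (0.0519) or RaptorKO injured 3 (0.0542). Apc2, encoding a relative of the scaffold Apc, fell by 2.23 and 2.15 on the log2 scale, and the corepressor gene Tle2 fell by 1.51 and 0.81. Between genotypes Tle2 was not called, but it was in injured nerves without RaptorKO injured 3 (edgeR adjusted p = 0.0203).

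In contralateral nerves RaptorKOs differed in 1 R-spondin receptor (higher), 3 modulators (2 higher, 1 lower), 1 polarity gene (lower), and 2 targets (higher). No secretion gene and no transduction gene was called. In injured nerves 1 R-spondin receptor was higher, 1 modulator was higher and 3 were lower, 1 polarity gene was higher and 2 were lower, 1 transduction gene was lower, and 1 target was higher and 2 were lower. The background shares are those given above for all tested genes.

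Among the modulators, both Frzb and Sostdc1, which encode secreted antagonists of Wnt signalling (the latter also binds BMPs), were lower in RaptorKOs. Frzb was at 263.8, 266.1, and 264 CPM in control contralateral and 108.9, 119.4, 80.1, and 109 CPM in RaptorKO contralateral nerves (log2 fold change -1.33, SE 0.12, edgeR adjusted p = 0.000118). It was also lower in injured nerves, at 155.5, 141.2, and 126.1 CPM against 50.2, 76.3, and 55.3 CPM (log2 fold change -1.20, SE 0.16, edgeR adjusted p = 0.00164). Thus Frzb, like Dkk3, was lower in uninjured RaptorKO nerves, and unlike Dkk3 it was called lower after crush too. Sostdc1 was not called in contralateral nerves (124.5, 123.6, and 129.5 CPM in controls against 99.2, 91.9, 92.3, and 124.5 CPM in RaptorKOs). It was called lower there without RaptorKO contralateral 4 (log2 fold change -0.41, edgeR adjusted p = 0.00823). In injured nerves it was at 82.0, 140, and 112.6 CPM in controls against 21.5, 11.4, and 15.8 CPM in RaptorKOs (log2 fold change -2.78, SE 0.24, edgeR adjusted p = 0.000145). No RaptorKO library came near the controls. SC identity markers were also lower in injured RaptorKOs in 2 of 4 cases, with sums of 999.2 to 1335 CPM against 1667 to 1780 CPM, and their part in the values of Frzb and Sostdc1 was not tested. The proteoglycan gene Gpc3 was higher in RaptorKO contralateral nerves (log2 fold change 0.89, SE 0.13, edgeR adjusted p = 0.00212), alongside 3 of 7 fibroblast markers, whose sums were 7610 to 10490 CPM against 4755 to 5652 CPM. Their part in the difference was not tested. In injured nerves Gpc3 was not called, but it was called higher without control injured 1 (edgeR adjusted p = 0.0372), without RaptorKO injured 2 (0.0257), and with no count filter (6.97e-05).

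Lgr6, which encodes an R-spondin receptor, was at 3.75, 5.24, and 5.39 CPM in control contralateral and 12.3, 14.6, 10.3, and 10.6 CPM in RaptorKO contralateral nerves (log2 fold change 1.33, SE 0.22, edgeR adjusted p = 0.00423). Upon injury it rose to 91.2, 74.8, and 70.7 CPM in controls and to 123.3, 107.4, and 113.5 CPM in RaptorKOs. The groups were separate at both stages. The injured difference was 0.55 on the log2 scale (SE 0.12, edgeR adjusted p = 0.0163), and it lost its call without control injured 2 (edgeR adjusted p = 0.0834), control injured 3 (0.0714), or RaptorKO injured 1 (0.0873). The interaction of Lgr6 was not called (log2 -0.78, SE 0.22, edgeR adjusted p = 0.082), but it was called by DESeq2 and with no count filter. Lgr4 and Lgr5, encoding the related receptors, fell upon injury in both genotypes, with log2 fold changes of -1.003 and -1.014 for Lgr4 and -2.04 and -3.52 for Lgr5, and neither was called between genotypes in the fits on 2 groups. The interaction of Lgr5 had an edgeR adjusted p of 0.0919, and it was called without control injured 1 (log2 -1.77, edgeR adjusted p = 0.0387) and by DESeq2 (adjusted p = 0.0261). Lgr5 was also called lower in injured RaptorKOs in the fit on all 13 libraries (edgeR adjusted p = 0.03).

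Daam2, a formin gene linked to Wnt signalling, differed between genotypes in opposite directions in contralateral and injured nerves. It was at 122.5, 115.2, and 107.1 CPM in control and 80.8, 81.8, 75.8, and 82.3 CPM in RaptorKO contralateral nerves, and at 20.9, 17.1, and 14.3 CPM in control and 27.7, 36.6, and 26.1 CPM in RaptorKO injured nerves. Neither pair of groups overlapped. It was lower in RaptorKO contralateral nerves (log2 fold change -0.51, SE 0.08, edgeR adjusted p = 0.0031) and higher in RaptorKO injured nerves (0.80, SE 0.19, edgeR adjusted p = 0.0259). The second call was lost without control injured 2 (edgeR adjusted p = 0.091) or 3 (0.0953), or RaptorKO injured 1 (0.0637) or 2 (0.0682). The planar polarity genes Vangl1 and Celsr2 were both lower in injured RaptorKOs, by -0.60 and -0.83 on the log2 scale (edgeR adjusted p = 0.00944 and 0.0112), the latter not called without control injured 2 (edgeR adjusted p = 0.0589). The corepressor gene Tle3 was at 208, 223.9, and 196.1 CPM in injured controls and 139.6, 135.6, and 126.4 CPM in injured RaptorKOs (log2 fold change -0.63, SE 0.10, edgeR adjusted p = 0.00471).

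Nkd1, a target gene that encodes a feedback inhibitor acting on Dishevelled, was the target with the clearest genotype difference. In contralateral nerves it was at 53.1 to 58.6 CPM in controls against 47.5 to 60.1 CPM in RaptorKOs and was not called. In injured nerves it was at 49.3, 72.2, and 60.7 CPM in controls against 27.3, 24.1, and 19.8 CPM in RaptorKOs (log2 fold change -1.34, SE 0.17, edgeR adjusted p = 0.0014), without overlap. The proliferation markers, 5 of 5 of which were lower in injured RaptorKOs, summed to 645 to 715 CPM against 1182 to 1324 CPM, and their part in this difference was not tested. Myc moved the other way, with a log2 fold change of 0.83 in injured nerves (SE 0.12, edgeR adjusted p = 0.0021). Ccnd1, the gene of cyclin D1, was higher in RaptorKO contralateral nerves (log2 fold change 0.59, SE 0.08, edgeR adjusted p = 0.00152) and was not called in injured nerves. Proliferation markers moved with Ccnd1 in contralateral nerves, where 2 of 5 were higher and their sums were 18.2 to 27.2 CPM in RaptorKOs against 4.11 to 9.01 CPM in controls, and their part was not tested. Axin2, a target gene among the 29, was not called in either genotype comparison (95% interval -0.55 to 0.13 in contralateral and -0.60 to 0.32 in injured nerves).

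**Figure D5:**
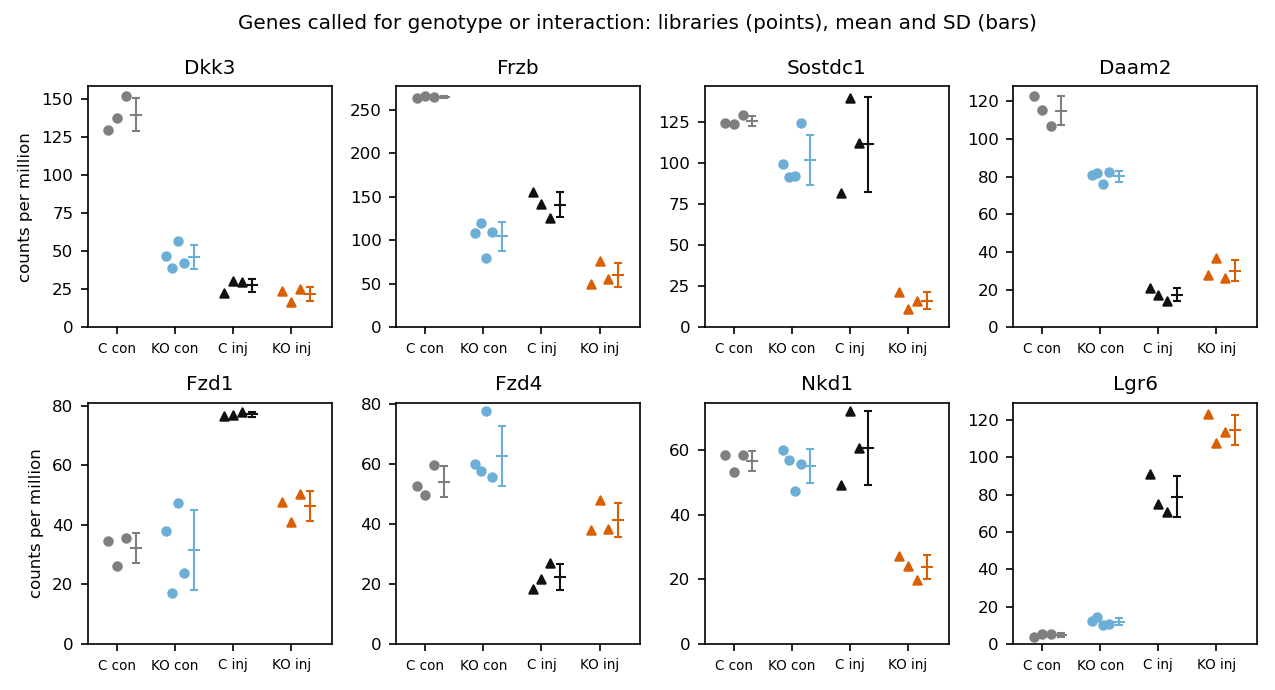
CPM of 8 genes called in a genotype comparison, by library (points), with the mean and SD of each group (bars), for control (C) and RaptorKO (KO) contralateral (con) and injured (inj) nerves. Dkk3 and Frzb are lower in all 4 RaptorKO contralateral libraries, whereas Sostdc1 and Nkd1 separate from controls in the injured ones.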

How the data were processed

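The authors trimmed reads with Trimmomatic, aligned them to GRCm38, and deposited the expected counts per gene from RSEM 1.2.22, with 1 column per nerve. These estimated counts, not whole for 24.93% to 27.95% of nonzero values because RSEM shares out ambiguous reads, were rounded here. Of 40787 gene IDs, 40634 matched GENCODE M21. The methods name a stranded library kit, but whether counting used the strand is not given in the sources used here, so antisense genes that overlap Rspo1, Wnt6, Wnt7b, Axin1, Axin2, Ctnnb1, Fzd3, Fzd5, Fzd6, Lef1, Tcf7, Tcf7l1, and Wnt5a may share their reads.

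Groups were taken from the sample labels. The Cre line and 1 marker gene are not reported here. Each of the 4 comparisons of 2 groups was fitted on its own libraries in R 4.3.3 with TMM factors and the quasi-likelihood test of edgeR 4.0.16, and the interaction on all 13. The exact test of edgeR and DESeq2 1.42.0 were alternatives. The study collected each injured nerve with its contralateral partner, and both carry the same number, so numbers were taken to mark 1 mouse within a genotype. Deviations of partners from their group means correlated at 0.078, 0.117, and 0.307 in controls and at -0.024, 0.229, and 0.18 in RaptorKOs. The method was also run on simulated counts with known changes, drawn as independent libraries from the fitted spread. That run does not bear on the pairing of nerves or on cell composition. No label states that different numbers are different animals, but the study counts 4 mice for RaptorKO contralateral nerves and 3 for each other condition. The p-values weigh a difference against the spread between these libraries.

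The genes and lists were chosen with earlier results of these data known. Values are given for genes called for genotype or interaction and for the 15 called genes with the smallest p for injury in controls. Up to 3 genes per pathway list are named, those called for genotype first, and Shisa3 was added to the modulators after its values were seen. Marker lists covered 12 cell types or states.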

Additional observations from a re-analysis of the deposited data

Results flagged for a closer look

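In RaptorKO contralateral nerves Porcn, which encodes an enzyme that acylates Wnt proteins for secretion, was at 14.46 CPM in replicate 1, apart from 10.12, 10.34, and 10.61 CPM in the other 3 (Dixon's ratio 0.886). It was the 1 case among 46 genes looked at in this group of 4 libraries, and chance alone gives about 1 case in 20.

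The response to injury differed between genotypes (interaction, edgeR's quasi-likelihood test) for 8 of the named genes. Dkk3 fell less in RaptorKOs, with a difference of 1.25 on the log2 scale (adjusted p = 0.00985), and so did Daam2, with 1.31 (adjusted p = 0.00296). Sostdc1 differed by -2.48 (adjusted p = 0.000423) and Nkd1 by -1.31 (adjusted p = 0.00366), since both fell upon injury in RaptorKOs and were not called in controls. Tle3 differed by -0.67 (adjusted p = 0.0181), Celsr2 by -0.93 (adjusted p = 0.019), Ccnd1 by -0.66 (adjusted p = 0.0221), and Vangl1 by -0.74 (adjusted p = 0.0327). The calls of Dkk3, Tle3, Celsr2, and Vangl1 were lost without both libraries of control replicate 3 (adjusted p = 0.0508, 0.0552, 0.0581, and 0.0843 in edgeR). Without control contralateral 2, Tle3, Celsr2, Ccnd1, and Vangl1 were not called (edgeR adjusted p = 0.0543, 0.0536, 0.074, and 0.0823). Celsr2 also lost its call without control contralateral 3 (edgeR adjusted p = 0.0542) or control injured 2 (0.0523), and Vangl1 without any of 8 further libraries (edgeR adjusted p up to 0.084).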

How the results depend on the processing

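No call changed direction under the alternatives tried. The counts called upon injury ranged from 6 to 7 higher and 12 to 17 lower in controls and from 4 to 6 higher and 12 to 16 lower in RaptorKOs. Beyond the changes given above for injury in RaptorKOs and for Porcn in controls, pairing the nerves of a mouse changed no call of a named gene upon injury or in the interaction. Shisa3 was not followed through the alternatives. Between genotypes the numbers join different mice (correlations of -0.07 to 0.316), and that block called 3 genes (Fzd2, Sfrp1, and Wnt10a) higher in RaptorKO contralateral nerves, against 0 without it, and Sostdc1 lower. Without a count filter, 2 genes were higher (Fzd2 added) and 2 lower (Sfrp4 added) in injured RaptorKOs. At an adjusted p below 0.01, 0 were higher there. Leaving out libraries of the interaction test gave 0 to 1 genes with a higher response, the 0 without both libraries of control replicate 3, an alternative chosen after seeing the data. The causes were not tested. Genes at few counts, such as Wnt4, Wnt10a, and Wif1 in uninjured nerves, are limited by depth, and their fold changes are imprecise.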
